A study of Mus musculus with 6 samples.

Results

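Selenoproteins are the proteins that hold selenocysteine, an amino acid that is built into the chain at a UGA codon, which elsewhere ends translation. Reading through the UGA requires a hairpin in the 3′ UTR of the mRNA (the SECIS element), the SECIS-binding protein Secisbp2, a dedicated elongation factor, Eefsec, and a tRNA that carries selenocysteine. The glutathione peroxidases reduce peroxides at the selenocysteine, Selenop carries selenium through the blood, and thioredoxin reductase keeps thioredoxin reduced. The supply of selenium and the tissue are both known to set how much of each is made.

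The ribosome density of 10 selenoprotein mRNAs was examined over Ribo-seq libraries of 6 tissues. The members were the rows whose Ensembl gene identifier maps to *Gpx1*, *Gpx2*, *Gpx3*, *Gpx4*, *Selenop*, *Selenow*, *Selenof*, *Selenom*, *Selenok* or *Txnrd1*, which gave 10 of the 18437 mRNAs listed in any library. Another 14 selenoprotein mRNAs were listed and served for comparison. Heart, lung, kidney, brain, colon and small intestine were taken from untreated wild-type (WT) C57BL/6J mice at 4 weeks of age, and each tissue gave 1 library. The labels do not say how many animals gave each tissue. In Ribo-seq, the mRNA fragments inside translating ribosomes are sequenced, and the values are RPKM, reads on each coding sequence (CDS), scaled by its length and by the reads on all CDSs of the library. RPKM can therefore be set against each other between mRNAs. It reflects mRNA amount and translation together, and in a whole tissue fewer cells of a type and less RNA per cell cannot be told apart.

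Whole reads could be recovered from 100% of the RPKM values through the CDS lengths, in all 4504853 reads (labelled colon) to 10635031 reads (labelled brain) per library. Intervals given below are 95% intervals of these counts. Reads carry no molecular identifiers here, so intervals cover counting error only, and no test between tissues was possible, since each was sequenced in 1 library.

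The labels of 4 libraries went against the tissue markers. All 4 kidney markers were highest in the colon-labelled library and all 4 colon markers in the kidney-labelled one, while all 4 brain markers were highest in the small-intestine-labelled library and all 4 small intestine markers in the brain-labelled one. The 4 heart and the 4 lung markers were highest under their own labels. Libraries are therefore named by their labels throughout (the colon-labelled library), and none was moved to another group. *Kri1* alone took 22.1% of the reads in the kidney-labelled library and 14.1% in the small-intestine-labelled one, against 0.400% to 6.79% elsewhere, which lowers every other RPKM in a library but not the order within it. The libraries labelled brain, colon and lung had reads on 11520, 12325 and 11594 mRNAs, fewer than the 14109 to 15028 of the others. In these 3 libraries 3, 4 and 5 of 69 ribosomal protein mRNAs, which every cell uses, were listed at 0, against 0 or 1 in the others. The same mRNAs recurred: *Rpl9* was at 0 in every library but the heart-labelled one, and *Rpl35* in all 3. *Gapdh* had 2 reads in the lung-labelled library and 46 in the colon-labelled one. It had 84 to 475 reads in the others. A 0 or a value of a few reads in the libraries labelled brain, colon and lung is therefore given only as listed.

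The position of the UGA was read first, because RPKM is taken over the whole CDS and does not separate ribosomes before the UGA from those past it. Coordinates are those of GRCm39 with the GENCODE M39 annotation, and every UGA lay within the CDS and was annotated as selenocysteine. The sequences below are shown for the 4 glutathione peroxidases, which are compared with each other, and for the other members that led in a library or whose UGA lay nearest to an end of the CDS, with the UGA (TGA in DNA) in capitals between 12 bases on each side.
Gpx1: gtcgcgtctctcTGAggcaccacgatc
Gpx2: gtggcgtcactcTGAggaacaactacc
Gpx3: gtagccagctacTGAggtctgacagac
Gpx4: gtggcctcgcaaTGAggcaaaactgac
Selenop: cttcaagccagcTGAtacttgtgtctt
Selenow: tattgtggagctTGAggctataagccc
Selenok: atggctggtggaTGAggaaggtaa
Txnrd1: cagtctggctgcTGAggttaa
The lines of *Selenok* and *Txnrd1* end with the stop codon, so that only a few bases follow. The first of the UGA codons of *Selenop* is shown.

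The UGA of *Gpx1* lay at codon 47 of 201 in exon 1 (chr9:108216650-108216652), and that of *Gpx2* at codon 40 of 190 in exon 1 on the minus strand (chr12:76842030-76842032). The UGA of *Gpx3* lay at codon 73 of 226 in exon 2 (chr11:54798082-54798084), and that of *Gpx4* at codon 129 of 253 in exon 3 (chr10:79890571-79890573). In all 4 the next codon started with gg, as the lines above show. Base G followed the first UGA in 7 of the 10 members, and A, C and T in 1 each. Of 8891 UGA stop codons of the other listed mRNAs, 36.7% were followed by G, and 5 of the 14 first UGA codons of the other selenoproteins were.

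The share of the CDS that a ribosome crosses before the UGA varied widely. It was 13.6% in *Selenow* (codon 13 of 88, chr7:15654389-15654391, minus strand), 20.5% in *Gpx2*, 22.9% in *Gpx1*, 31.9% in *Gpx3* and 32.4% in *Selenom* (codon 48 of 145). In the deposited long form of *Gpx4* it was 50.6% and in *Selenof* (codon 93 of 162) 56.8%. The CDS of the canonical *Gpx4* transcript has 77.9% of that length, and the share in it was not read. The UGA was near the end in *Selenok*, at codon 92 of 94 (chr14:29695397-29695399), and in *Txnrd1*, at codon 612 of 613 (chr10:82731871-82731873), with 96.8% and 99.7% of the CDS before it. *Selenop* holds 10 UGA codons, from codon 59 (chr15:3304330-3304332) to codon 377 of 380, with 15.3% of its CDS before the first. Nearly all reads counted on *Selenok* and *Txnrd1* can therefore come from ribosomes that have not yet reached the UGA.

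**Figure D1:**
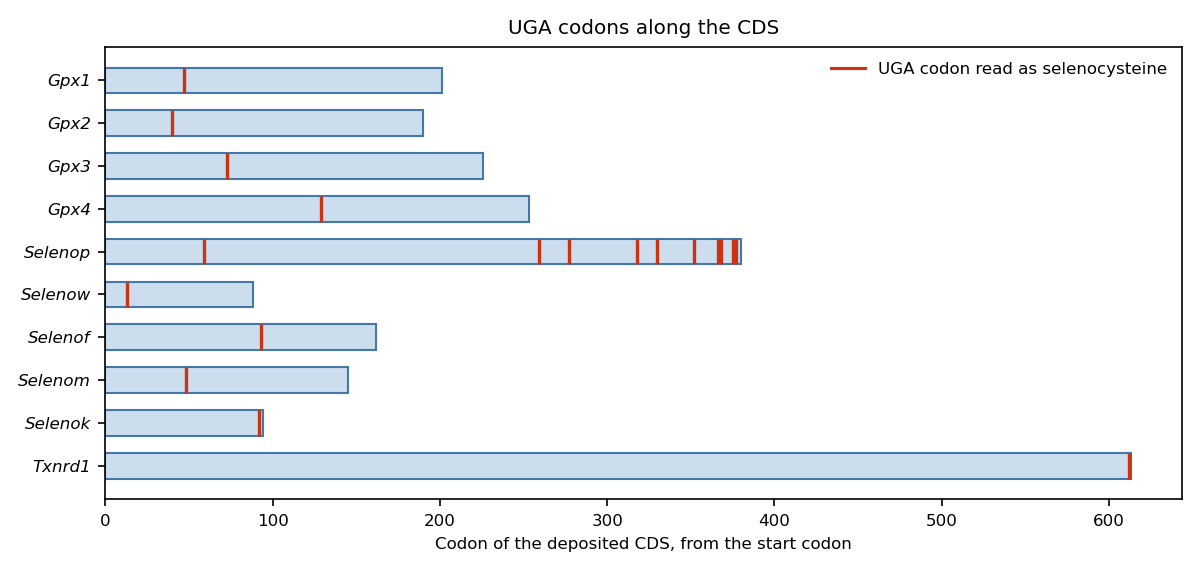
UGA codons read as selenocysteine (red lines) along the deposited CDS of each of the 10 mRNAs (bars, from the start codon, in codons). The UGA lies at codon 13 of 88 in Selenow and at codon 612 of 613 in Txnrd1, and Selenop alone among the 10 holds more than 1, with 10. The deposited CDS of Gpx4 is a long form.

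Reads of some members could also come from near-identical copies. Of the 29-nt windows of the CDS, 80.7% in *Selenok*, 58.7% in *Gpx4* and 56.8% in *Gpx2* occurred in a pseudogene or another non-coding gene. Reads were aligned to protein-coding mRNAs only, so reads from such copies would be counted on the member. For *Gpx3*, 12 of 650 windows occurred in *Gpx5* or *Gpx6*, which are protein-coding, so reads that map to both would be left out. The other 6 members shared none. The values of *Selenok*, *Gpx4* and *Gpx2* are uncertain to that extent.

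The glutathione peroxidase with the highest ribosome density differed between the libraries. *Gpx2* led in the brain- and kidney-labelled libraries, *Gpx3* in the colon- and lung-labelled ones, and *Gpx1* in the small-intestine-labelled one, while *Gpx3* and *Gpx4* were close in the heart-labelled one. The 4 were then taken in turn.

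*Gpx3*, the peroxidase secreted into plasma and known to be made in kidney tubules, had the highest density of any member in any library. It reached 10365 RPKM (10251 to 10480), from 31657 reads, in the colon-labelled library, where it was the mRNA with the 6th highest RPKM. It had 501 RPKM in the lung-labelled library, 112 in the brain-labelled one, 92.8 in the heart-labelled one, 44.5 in the kidney-labelled one and 9.65 in the small-intestine-labelled one. Each of these steps was larger than counting error, and the highest value was 20.7 times the second (19.9 to 21.5). The colon-labelled library also had a summed 19683 RPKM of the 4 kidney markers, against 12.7 to 515 in the others. The 515 RPKM were in the brain-labelled library, and the lung-labelled one had 75.4 RPKM. The part of kidney mRNAs in the *Gpx3* levels of these libraries was not tested. Counting error does not cover it, so the place of *Gpx3* in the brain-labelled library is given only as listed. *Gpx3* alone took 0.703% of all reads in the colon-labelled library.

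*Gpx2*, the peroxidase known from the epithelium of the gut, fell into high and low libraries. It had 265 RPKM (250 to 281) in the kidney-labelled library, 210 (198 to 221) in the brain-labelled one and 34.3 in the lung-labelled one. It had 4.07 RPKM from 19 reads in the heart-labelled library, 2.52 from 11 reads in the small-intestine-labelled one and 0.389 from 1 read in the colon-labelled one. The 3 low libraries did not differ beyond counting error from neighbour to neighbour, while each step above them did. The intervals of the heart-labelled (2.45 to 6.36) and colon-labelled (0.0099 to 2.17) libraries, which are not neighbours, did not overlap. The kidney- and brain-labelled libraries were those with the highest summed colon markers (3306 and 660 RPKM) and small intestine markers (1134 and 28450 RPKM), and their part was not tested. In the lung-labelled library these sums were 0.471 and 27.6 RPKM. They were 83.5 and 27.8 RPKM in the heart-labelled library, and 1.72 and 64.0 RPKM in the colon-labelled one.

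*Gpx1*, the cytosolic peroxidase found in most cells, was highest in the colon-labelled library at 328 RPKM (306 to 350). The lung-labelled library followed with 94.2, the heart-labelled one with 64.6 and the kidney-labelled one with 55.3 RPKM. The lowest were 31.7 in the brain-labelled library and 26.2 in the small-intestine-labelled one. Neither these lowest libraries nor the heart- and kidney-labelled ones differed from each other beyond counting error. Red blood cells are known to hold much Gpx1 protein. The summed density of 5 red blood cell mRNAs was 479 RPKM in the lung-labelled library, 95.0 in the colon-labelled one and 0.868 to 48.3 in the others, and its part was not tested.

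*Gpx4*, which reduces lipid peroxides within membranes and guards cells against ferroptosis, varied less. It had 88.2 RPKM (81.0 to 95.9) in the heart-labelled library, 43.3 in the colon-labelled one, 42.1 in the lung-labelled one, 32.0 in the brain-labelled one, 19.5 in the kidney-labelled one and 13.1 in the small-intestine-labelled one. The values labelled colon and lung did not differ beyond counting error. The deposited CDS of *Gpx4* is a long form, and the CDS of the canonical transcript has 77.9% of its length.

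**Figure D2:**
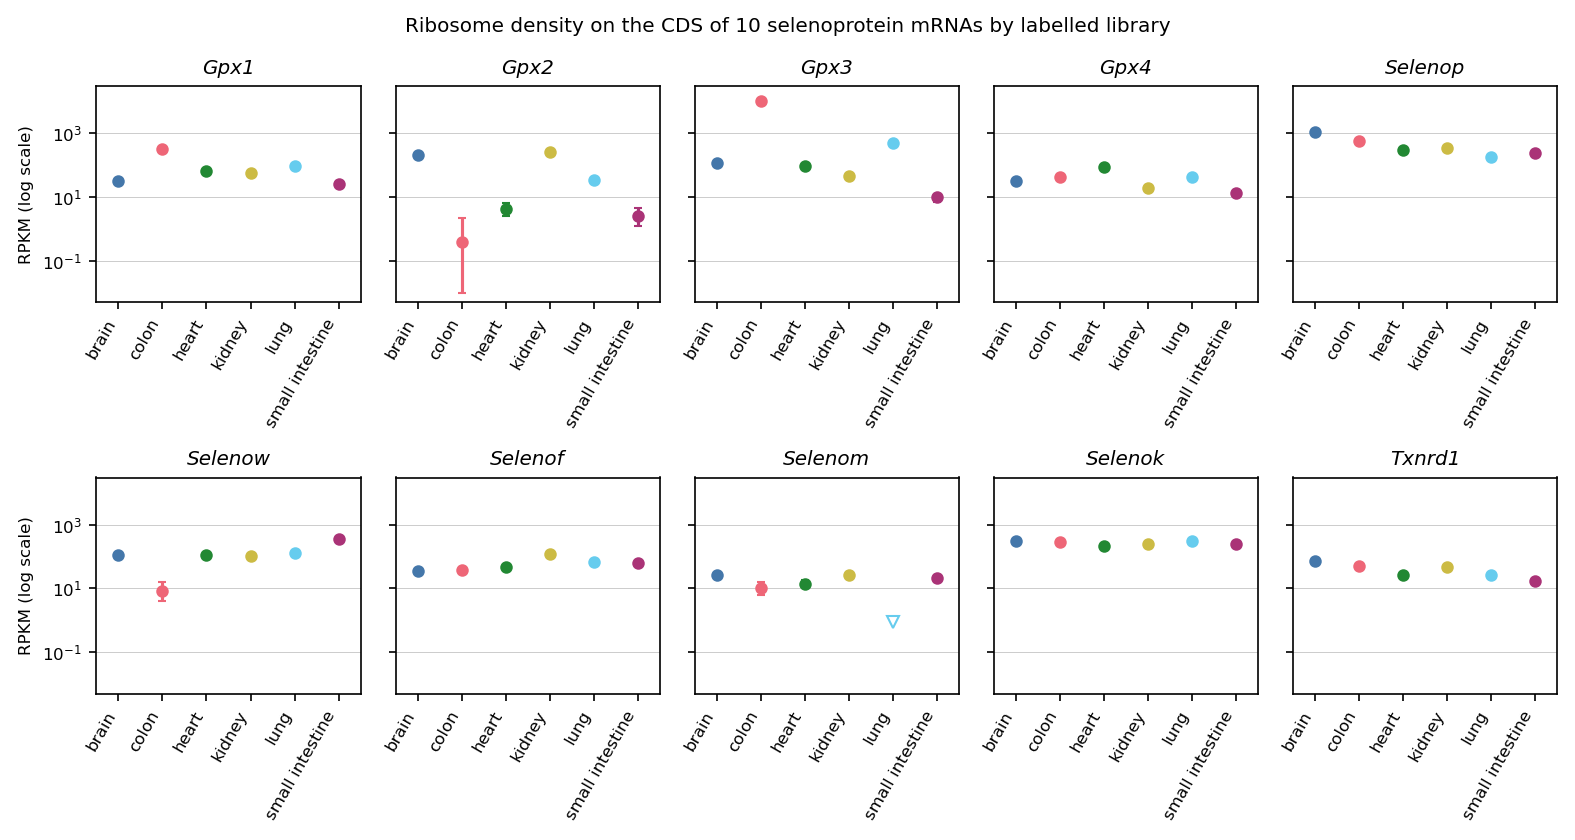
RPKM (log scale) of each of the 10 mRNAs in the 6 libraries, named by their labels, with 95% counting intervals that are mostly smaller than the points. The open triangle is the RPKM of 3 reads (0.892) for Selenom, listed at 0 in the lung-labelled library. Gpx3 runs from 9.65 to 10365 RPKM, and Selenok stays between 208 and 311 RPKM.

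The shares of the summed RPKM of the 4 glutathione peroxidases show which one dominated where. *Gpx3* made up 96.5% in the colon-labelled library, 31.6 times *Gpx1* (29.6 to 33.9), and 74.6% in the lung-labelled one, 5.32 times *Gpx1* (4.81 to 5.90). *Gpx2* made up 69.0% in the kidney-labelled library, 4.79 times *Gpx1* (4.18 to 5.51), and 54.4% in the brain-labelled one, 1.87 times *Gpx3* (1.71 to 2.05). *Gpx1* made up 51.0% in the small-intestine-labelled library, 2.00 times *Gpx4* (1.49 to 2.71), where the summed density was lowest, at 51.5 RPKM. In the heart-labelled library no single peroxidase dominated: *Gpx3* made up 37.2%, *Gpx4* 35.3% and *Gpx1* 25.9%. *Gpx3* was there 1.05 times *Gpx4* (0.931 to 1.19), which was not beyond counting error, and with the canonical CDS length *Gpx4* came first.

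**Figure D3:**
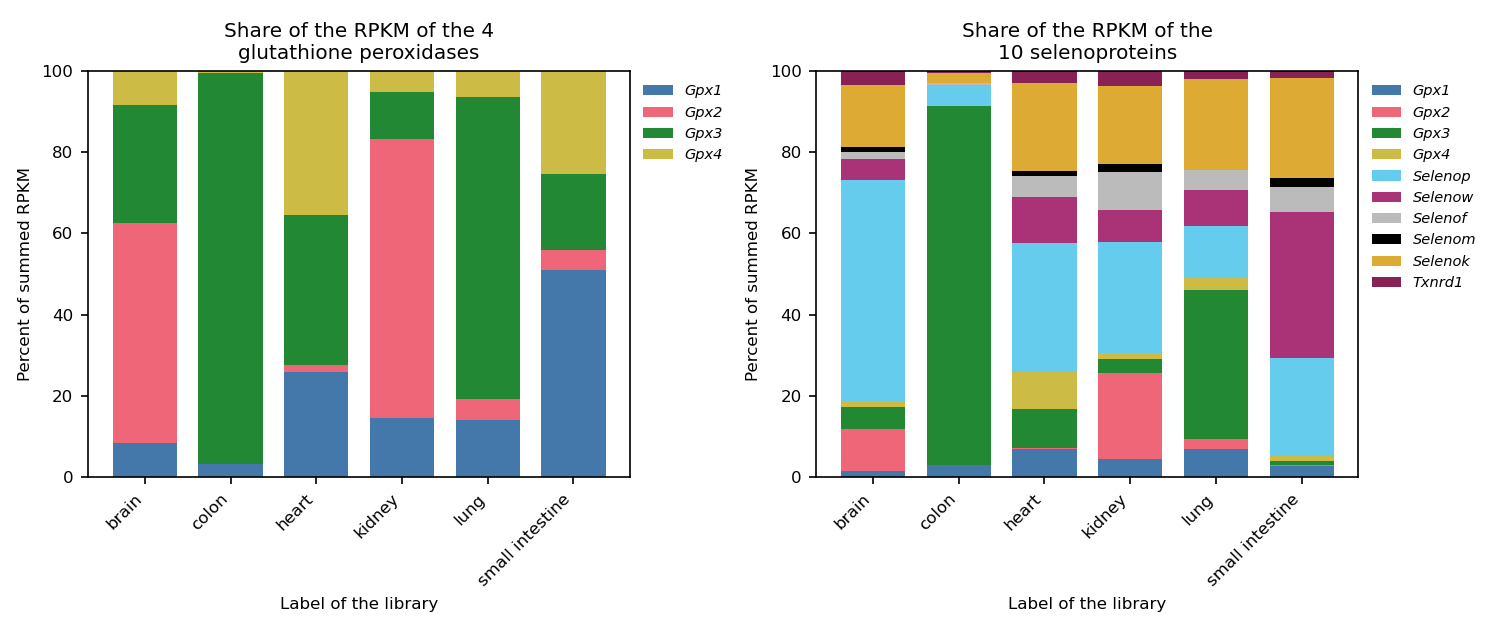
Share, in percent of summed RPKM, of each of the 4 glutathione peroxidases (left) and of each of the 10 selenoprotein mRNAs (right) in the 6 libraries, named by their labels. Gpx3 takes 96.5% of the left bar and 88.6% of the right bar in the colon-labelled library, and Selenop is the largest part of the right bar in the brain-, heart- and kidney-labelled ones.

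Among all 10 members, *Selenop* had the highest ribosome density in the brain-, heart- and kidney-labelled libraries. *Selenop* encodes the plasma protein that brings selenium to other tissues, made mostly by the liver. It had 1120 RPKM (1102 to 1139) in the brain-labelled library, 560 in the colon-labelled one, 343 in the kidney-labelled one, 303 in the heart-labelled one, 238 in the small-intestine-labelled one and 174 in the lung-labelled one. All steps were beyond counting error. The summed density of 4 hepatocyte markers was 679 RPKM in the kidney-labelled library and 479 in the colon-labelled one, where 1 (*Alb*) and 3 of them were highest, and 4.35 to 84.2 in the others. In the brain-labelled library 3 of the 4 were at 0 and *Alb* had 28.8 RPKM. Their part in the *Selenop* levels was not tested. *Selenop* made up 54.4% of the RPKM of the 10 members in the brain-labelled library, 31.6% in the heart-labelled one and 27.2% in the kidney-labelled one. It was 3.61 times the next member, *Selenok*, in the brain-labelled library (3.37 to 3.86) and 1.46 times in the heart-labelled one (1.32 to 1.61), and 1.29 times *Gpx2* in the kidney-labelled one (1.21 to 1.38).

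*Gpx3* led the 10 in the colon- and lung-labelled libraries, with 88.6% and 36.6% of their RPKM. *Selenow*, a small protein with a thioredoxin fold that is best known from muscle and brain, led in the small-intestine-labelled library with 353 RPKM (328 to 380), 35.8% of the total and 1.45 times *Selenok* (1.29 to 1.63). That library had a summed 3151 RPKM of the 4 brain markers, against 7.40 to 50.2 in the others, and their part was not tested. *Selenow* had 124, 111, 109 and 101 RPKM in the libraries labelled lung, heart, brain and kidney, which did not differ from neighbour to neighbour beyond counting error. The colon-labelled library stood apart with 8.41 RPKM (4.03 to 15.5) from 10 reads.

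*Selenok*, a small membrane protein of the endoplasmic reticulum that takes part in protein palmitoylation, was the most even member. It had 311 RPKM in the brain-labelled library, 306 in the lung-labelled one, 290 in the colon-labelled one, 244 in the small-intestine-labelled one, 239 in the kidney-labelled one and 208 in the heart-labelled one. The highest was 1.49 times the lowest (1.33 to 1.67). Of 13476 mRNAs with a mean of at least 10 reads per library, which included all 10 members, 0.230% had a smaller range on the log2 scale. It followed directly behind the first member in the brain-, heart-, lung- and small-intestine-labelled libraries. In the small-intestine-labelled one it was 1.02 times *Selenop* (0.926 to 1.12), which was not beyond counting error. Its values could include reads of the pseudogene copies given above.

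*Selenof* and *Selenom* are thiol proteins of the endoplasmic reticulum, the first a partner of the glucosyltransferase that checks glycoprotein folding. *Selenof* had 117 RPKM (106 to 129) in the kidney-labelled library, 67.6 in the lung-labelled one, 61.6 in the small-intestine-labelled one, 48.5 in the heart-labelled one, 37.9 in the colon-labelled one and 36.0 in the brain-labelled one. Its 3 lowest libraries did not differ beyond counting error from neighbour to neighbour, but the intervals labelled heart (41.9 to 55.9) and brain (31.0 to 41.5) did not overlap. *Selenom* had the fewest reads of the 10, with 27.0 RPKM in the kidney-labelled library, 25.5 in the brain-labelled one, 20.7 in the small-intestine-labelled one, 13.5 in the heart-labelled one and 10.2 in the colon-labelled one. It was listed at 0 in the lung-labelled library, where 3 reads, the one-sided limit that a count of 0 allows, would give 0.892 RPKM, and ribosomal protein mRNAs were at 0 there too.

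*Txnrd1*, the cytosolic reductase of thioredoxin, had 71.8 RPKM (68.1 to 75.7) in the brain-labelled library, 51.1 in the colon-labelled one, 46.7 in the kidney-labelled one, 26.8 in the heart-labelled one, 25.8 in the lung-labelled one and 17.1 in the small-intestine-labelled one. The heart- and lung-labelled libraries did not differ beyond counting error, nor did the colon- and kidney-labelled ones. The canonical CDS has 81.4% of the deposited length. With that length the order of the libraries is the same by construction.

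The spread of the 10 members over the libraries was set against that of all tested mRNAs. The range of log2(RPKM + 1) was 9.93 for *Gpx3*, 7.58 for *Gpx2*, 5.23 for *Selenow*, 4.81 for *Selenom* and 3.59 for *Gpx1*, all above the median of 3.16 over the 13476 mRNAs. It was 2.68 for *Selenop*, 2.66 for *Gpx4*, 2.01 for *Txnrd1*, 1.67 for *Selenof* and 0.57 for *Selenok*, all below that median. Of the peroxidases only *Gpx4* lay below it. The place of *Selenom* and *Selenow* rested on 1 library each, namely the 0 in the lung-labelled and the 10 reads in the colon-labelled one. Without that library their ranges were 1.32 and 1.80, below the medians of 2.73 and 2.95 of all mRNAs over the remaining 5. *Gpx1*, *Gpx2* and *Gpx3* stayed above the median without their lowest library, at 3.33, 6.24 and 7.83. The highest library was not left out in turn. For *Gpx1* it was the colon-labelled one, with 328 RPKM against 26.2 to 94.2 in the others, so the place of *Gpx1* may rest on that library.

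**Figure D4:**
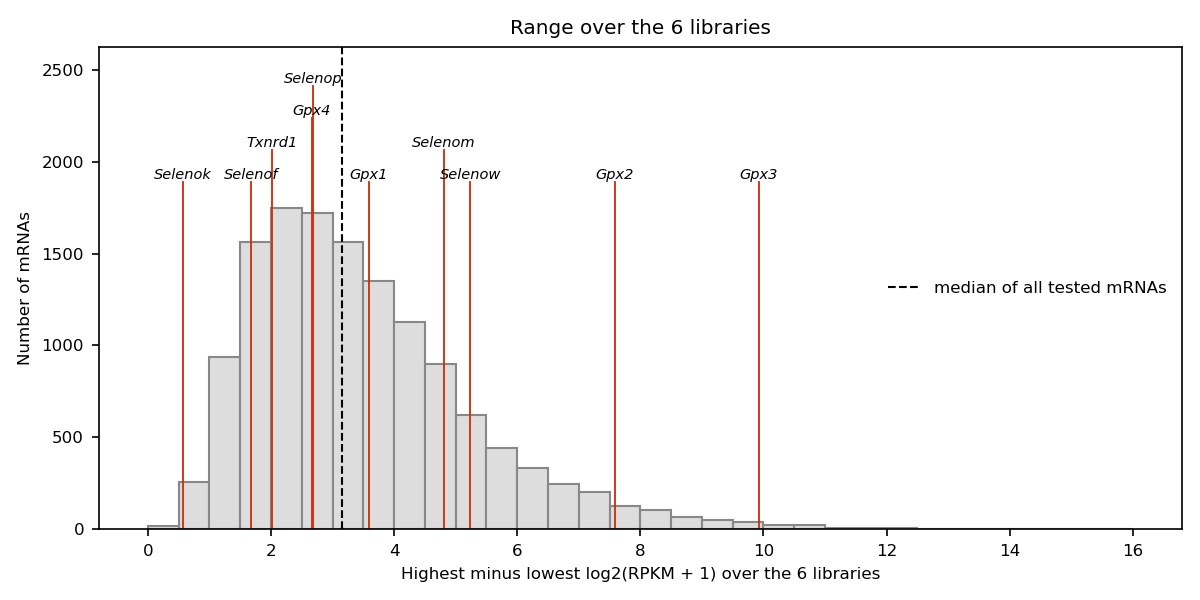
Number of mRNAs (grey bars) by the range of log2(RPKM + 1) over the 6 libraries, for the 13476 mRNAs tested, with the 10 selenoprotein mRNAs as red lines and the median of 3.16 as a dashed line. Selenok lies at the narrow end at 0.57 and Gpx3 at the wide end at 9.93.

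A member was called above the other libraries where its log2(RPKM + 1) was at least 2 (a 4-fold difference) over the median of the other 5. In the brain-labelled library 1 of 10 members was above, *Gpx2*, where 11.0% of all tested mRNAs were. In the colon-labelled library 2 were above, *Gpx1* and *Gpx3*, against 9.05% of all. The heart- and small-intestine-labelled libraries had none above, against 8.27% and 16.1% of all. *Gpx2* was the only member above in the kidney-labelled library, against 7.88%, and *Gpx2* and *Gpx3* were above in the lung-labelled one, against 13.8%. Over all libraries 3 of the 10 members were above in at least 1, all of them glutathione peroxidases, where 47.5% of all tested mRNAs were. Counts of 0 to 2 of 10 in a library lie near these shares, so they say little of the members as a group. The call of *Gpx3* in the lung-labelled library, at 2.42 (log2), was lost when libraries were scaled by the median ratio of mRNAs (1.79) or the upper quartile (1.86), and when the mean of the other 5 was used (1.85). That of *Gpx2* there, at 2.80, was lost with that mean (1.06) and with a pseudocount of 10 RPKM (1.65).

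Members were called below the others by the same distance. None was below in the brain-labelled library, where 11.6% of all tested mRNAs were, or in the kidney-labelled one, where 3.47% were. *Gpx2* and *Selenow* were below in the colon-labelled library (6.79% of all), *Gpx2* in the heart-labelled one (6.69%), *Selenom* in the lung-labelled one (9.49%), and *Gpx2* and *Gpx3* in the small-intestine-labelled one (9.20%). With a pseudocount of 10 RPKM, 3 of these 6 calls were lost, *Gpx2* in the libraries labelled heart (-1.65) and small intestine (-1.82) and *Selenom* in the lung-labelled one (-1.62). The call of *Gpx2* in the heart-labelled library is the same difference as its call above in the lung-labelled one, seen from the other side. The calls of *Gpx2* and *Selenow* in the colon-labelled library and of *Selenom* in the lung-labelled one rest on 1, 10 and 0 reads, in libraries where ribosomal protein mRNAs were at 0 as well. By the highest library, 3 members peaked in the brain-labelled library (*Selenop*, *Selenok* and *Txnrd1*, against 16.6% of all mRNAs) and 3 in the kidney-labelled one (*Gpx2*, *Selenof* and *Selenom*, against 7.25%). *Gpx1* and *Gpx3* peaked in the colon-labelled one (15.1% of all), *Gpx4* in the heart-labelled one (12.7%), *Selenow* in the small-intestine-labelled one (21.6%) and none in the lung-labelled one (26.8%). The peaks of *Selenok* and *Selenom* were not beyond counting error of the next library. The median difference of the 10 members from the other libraries ran from -0.89 (log2) in the small-intestine-labelled library to 0.36 in the lung-labelled one, where the medians of all tested mRNAs were 0.01 and 0.26.

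The heart- and lung-labelled libraries, whose markers go with their labels, were compared on their own. *Gpx4* was 2.10 times higher in heart (1.80 to 2.45) and *Selenop* 1.74 times (1.64 to 1.86). *Gpx2* was 8.41 times higher in lung (5.20 to 14.4) and *Gpx3* 5.40 times (4.91 to 5.94). These 4 kept their direction under every scaling tried. *Gpx1*, *Selenok* and *Selenof* were 1.46, 1.47 and 1.39 times higher in lung on RPKM, but were higher in heart when libraries were scaled by the median ratio of mRNAs (1.07, 1.06 and 1.12 times) and about equal when scaled by the upper quartile (1.01, 1.00 and 1.06 times). *Selenow* and *Txnrd1* were within counting error on RPKM, and 1.38 and 1.61 times higher in heart with the median ratio. *Selenom* had 13.5 RPKM in heart and was listed at 0 in lung.

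The members made up a small share of the reads. They took 0.810% (0.802 to 0.818, Wilson interval) in the colon-labelled library, 0.179% in the brain-labelled one, 0.0868% in the kidney-labelled one, 0.0846% in the lung-labelled one, 0.0684% in the heart-labelled one and 0.0538% in the small-intestine-labelled one. Without *Gpx3* the share labelled colon was 0.107%, below the 0.172% labelled brain. The peroxidases made up 91.8% of the RPKM of the 10 in the colon-labelled library and 5.22% in the small-intestine-labelled one.

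The other 14 selenoprotein mRNAs together had 89.9 to 329 RPKM per library, against 961 to 11694 RPKM for the 10 members. Of the 14, 12 had a mean of at least 10 reads, and *Dio3* and *Selenov* did not. In the colon-labelled library 3 of the 12 were above the others, namely *Dio1*, which activates thyroid hormone (52.1 RPKM), *Msrb1*, which repairs oxidised methionine (53.6 RPKM), and *Sephs2*, which makes selenophosphate for selenocysteine itself (104 RPKM), against 9.05% of all tested mRNAs. *Dio1* was also above in the libraries labelled brain (30.0 RPKM) and kidney (10.9 RPKM), and *Dio2*, the deiodinase known from brain, in the small-intestine-labelled one (15.5 RPKM). *Selenoh* (183 RPKM) and *Selenos* (37.7 RPKM) were above in the lung-labelled one. Below the others were *Selenoh* in the brain- and kidney-labelled libraries, *Selenot* in the kidney-labelled one, *Dio1* in the heart-, lung- and small-intestine-labelled ones, and *Msrb1* in the lung- and small-intestine-labelled ones. *Selenoh* had the highest density of the 14 and the widest difference, with 1 read in each of the brain- and kidney-labelled libraries. The counts above in the brain-, kidney-, lung- and small-intestine-labelled libraries were 1, 1, 2 and 1 of 12, against 11.0%, 7.88%, 13.8% and 16.1% of all mRNAs. The counts below in the brain-, heart-, kidney-, lung- and small-intestine-labelled ones were 1, 1, 2, 2 and 2 of 12, against 11.6%, 6.69%, 3.47%, 9.49% and 9.20%. Most of these counts lie near the shares of all mRNAs.

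The mRNAs that handle selenium were led by the receptor of Selenop in kidney, *Lrp2* (megalin). It had 2731 RPKM in the colon-labelled library, 112 in the lung-labelled one and 68.1 in the brain-labelled one, all above the others, and 1.24 to 3.13 RPKM in the remaining 3, all below. The colon-, lung- and brain-labelled libraries also had the highest summed kidney markers, at 19683, 75.4 and 515 RPKM, and their part was not tested. *Lrp8*, the receptor of Selenop in brain, was above the others in the small-intestine-labelled library, with 19.8 RPKM against 0 to 2.29. In the colon-labelled library, *Scly*, which frees selenium from selenocysteine (155 RPKM), and *Sepsecs*, which makes selenocysteine on its tRNA (53.9 RPKM), were above as well. *Pstk*, the kinase of the same tRNA pathway (17.5 RPKM), and *Selenbp1*, a selenium-binding protein without selenocysteine (282 RPKM), were above in the lung-labelled one. Counts above were 3 of 15 in the colon- and lung-labelled libraries (9.05% and 13.8% of all mRNAs), 1 of 15 in the brain- and small-intestine-labelled ones (11.0% and 16.1%) and 0 in the heart- and kidney-labelled ones (8.27% and 7.88%). Most of these counts too lie near the shares of all mRNAs. Below were *Trit1* in the brain- and lung-labelled libraries, *Selenbp1* in the brain- and small-intestine-labelled ones, and *Trnau1ap* in the small-intestine-labelled one. With *Lrp2*, counts below were 2, 1, 1, 1 and 3 of 15 in the brain-, heart-, kidney-, lung- and small-intestine-labelled libraries. The shares of all mRNAs there were 11.6%, 6.69%, 3.47%, 9.49% and 9.20%. In the colon-labelled one 0 of 15 were below, against 6.79%. *Secisbp2* and *Eefsec*, which serve the reading of the UGA, were low throughout, at 0.610 to 6.48 and 0.838 to 6.66 RPKM. *Secisbp2l*, also among these mRNAs, had 9.46 RPKM in the heart-labelled library to 49.3 in the lung-labelled one. The SECIS-binding proteins with other main roles, *Ncl* and *Rpl30*, reached 444 and 405 RPKM.

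Paralogs that carry cysteine in place of selenocysteine were compared with the peroxidases. *Gpx6*, whose mouse form has cysteine, had 36.5 RPKM in the colon-labelled library and 0 to 0.987 elsewhere, which is above the others there, as *Gpx3* was. The 12 windows of *Gpx3* that occur in *Gpx5* or *Gpx6* would give reads that map to several mRNAs, which the processing assumed here leaves out. Windows that are nearly but not exactly alike were not searched, and whether *Gpx3* reads were counted on *Gpx6* was not tested. *Gpx5* was at 0 in all 6 libraries. *Gpx7* and *Gpx8*, of the endoplasmic reticulum, were highest in the lung-labelled library, with 183 and 57.8 RPKM, and *Gpx7* was below the others in the brain-labelled one (12.6 RPKM). *Msrb3* (193 RPKM) and *Msrb2* (47.0 RPKM) were above the others in the heart-labelled library, and *Msrb2* also in the colon- and small-intestine-labelled ones. *Msrb2* was at 0 in the brain-, kidney- and lung-labelled libraries, and *Msrb3* was below in the small-intestine-labelled one. Of 5 tested, 2, 2 and 1 were above in the colon-, heart- and small-intestine-labelled libraries, against 9.05%, 8.27% and 16.1% of all mRNAs. In the brain-, kidney-, lung- and small-intestine-labelled ones 2, 1, 1 and 1 were below, against 11.6%, 3.47%, 9.49% and 9.20%. Counts of so few mRNAs say little of the list as a group.

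Of 16 other enzymes that act on peroxides or in the thiol pathways, 8 were above the others in the colon-labelled library, where *Gpx3* and *Gpx1* peaked, and 6 were highest there. Of all tested mRNAs, 9.05% were above there and 15.1% were highest there. The 8 were catalase (*Cat*, 631 RPKM), the superoxide dismutases *Sod2* (501) and *Sod3* (904), *Prdx5* (2647), glutathione reductase *Gsr* (188), and the enzymes of glutathione synthesis *Gclc* (270), *Gclm* (201) and *Gss* (94.1). *Prdx2* and *Sod1* (512 and 383 RPKM) were highest in the heart-labelled library instead and *Prdx1* (207 RPKM) in the brain-labelled one. The median difference of the 16 in the colon-labelled library was 1.68 (log2) against 0.01 for all mRNAs. *Txn1*, the substrate of Txnrd1, was above in the kidney-labelled library (1816 RPKM), *Sod2* (1009 RPKM) and *Prdx3* (390 RPKM) in the heart-labelled one, and *Sod3* (1444 RPKM) and *Prdx6* (1130 RPKM) in the lung-labelled one. Below were *Prdx4* in the brain-labelled library, *Gclc* and *Gss* in the heart-labelled one, *Cat* in the kidney-labelled one, and *Cat* and *Prdx6* in the small-intestine-labelled one. Counts above in the heart-, kidney- and lung-labelled libraries were 2, 1 and 2 of 16, against 8.27%, 7.88% and 13.8% of all mRNAs. Counts below in the brain-, heart-, kidney- and small-intestine-labelled ones were 1, 2, 1 and 2 of 16, against 11.6%, 6.69%, 3.47% and 9.20%.

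The mRNAs whose pattern was most like each glutathione peroxidase were found by the distance between their log2(RPKM + 1) profiles over the 6 libraries after each profile was centred, which is a description and says nothing of shared control. *Gpx2* was closest to *Cldn3*, a tight junction protein of epithelia, with a distance of 0.55. *Cldn3* had 243 RPKM in the brain-labelled library, 242 in the kidney-labelled one, 41.3 in the lung-labelled one and 0.676 to 4.28 in the others, values that lie near those of *Gpx2*. *Pglyrp1*, which binds bacterial cell walls, was next, at 0.94. *Gpx1* was closest to *Cgnl1* (0.53) and *Unc119b* (0.67), and *Gpx4* to *Ctnnal1* (0.47) and *Ssbp1* (0.55). *Gpx3* had no close match, with *Ttc36* at 2.66 and *Kcnj15* at 2.72, both of which peaked in the colon-labelled library (1336 and 374 RPKM).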

How the data were processed

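Ribo-seq was performed on 6 mouse tissues with 1 library for each. Per the labels, tissue lysates were treated with RNase I and footprints of about 25 to 35 nt were excised, with cycloheximide in the lysis buffer. The authors deposited, for every library, an RPKM value for each protein-coding mRNA, whose row name also gives the CDS interval. The Methods describe the steps for macrophage libraries, and the same steps are assumed for the tissues. Cutadapt removed adapters, reads under 15 nt were dropped, and STAR aligned the rest to 1 mRNA per gene, the one with the longest CDS (Ensembl release 107, GRCm39). Reads that mapped to several mRNAs or had more than 2 mismatches were left out, and reads on CDSs were counted. The submitters' processing notes name cutadapt, STAR and GRCm39. Tool versions are not given in the sources used here.

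Reads were recovered as whole numbers (within 0.01 read), 4504853 to 10635031 per library. They add up to all reads of a library, so an mRNA not listed had 0 reads. A level has an exact Poisson interval, a ratio an exact conditional binomial (Clopper-Pearson) interval and a share of reads a Wilson interval, all two-sided at 95%, and a level of 0 is given with the RPKM of 3 reads, its one-sided limit. Differences are log2(RPKM + 1) against the median of the other 5 libraries, over mRNAs with a mean of at least 10 reads (13476 tested, 4961 left out), and a difference of 2 is a call. This scale understates changes of low mRNAs. The libraries with the middle values of an mRNA are each set against the other, so a call above in the higher and below in the lower is the same difference. Symbols were matched for 18424 of 18437 gene identifiers. UGA codons were read from the GRCm39 genome with GENCODE M39 (Ensembl release 116), where 18154 mRNAs had a CDS of the deposited length, among them all 24 selenoproteins. Shared windows of 29 nt were searched as exact matches in the transcripts of that annotation.

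The members, the gene lists and the comparisons were chosen with earlier results of these data known. Named were all 10 members, every mRNA of the lists called above or below, the 3 of each list with the highest RPKM, the 2 mRNAs most like each peroxidase, and the tissue markers. The search for ribosomal protein mRNAs at 0 (with *Gapdh*) and the ranges without the lowest library were added after the data were seen. Alternatives covered length, depth, scaling, pseudocount, filter, centre and threshold. Recovery of reads, calls and ratio intervals were tested on simulated data. Python 3.11.15 with numpy 2.4.6, pandas 2.3.3, scipy 1.17.1 and matplotlib 3.10.9 was used.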

Additional observations from a re-analysis of the deposited data

How the results depend on the processing

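No paired analysis was possible because each tissue has 1 library. The first glutathione peroxidase stayed the same in all 6 libraries when reads were thinned to the lowest total, and in 5 of 6 when reads were not divided by length or when the CDS length of the canonical transcript was used, a length chosen after seeing the data. The library that changed was the heart-labelled one, where the log2 ratio of *Gpx3* to *Gpx4*, 0.07 as reported, became -0.0896 without division by length and -0.29 with the canonical length. The first of the 10 members changed only without division by length, in the small-intestine-labelled library, where *Selenop* replaced *Selenow* and the log2 ratio of *Selenow* to *Selenok* stayed above 0. An alternative with RefSeq protein lengths was not run.

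Calls above the others numbered 6 and calls below 6. Among them, *Gpx2* above in the lung-labelled library and below in the heart-labelled one are the same difference. With a threshold of 1 on the log2 scale they became 11 and 12, and with a pseudocount of 10 RPKM there were 3 calls below. Each other alternative gave 5 or 6 calls above and 6 or 7 below. Of 480 differences of a member in a library under an alternative, 470 stayed on their side of the threshold, 8 fell short of it and 2 passed it, and no call changed its direction. Scaling by the median ratio moved the median of all mRNAs by -0.38 (log2) in the lung-labelled library and by up to 0.17 in the others, and the total without *Kri1* moved it by 0.25 in the kidney-labelled one. All 10 members kept their highest library under these scalings, an alternative added after seeing the data. Only 1 of the 10, *Gpx4*, peaked in the heart- or lung-labelled library, where 12.7% and 26.8% of all tested mRNAs peaked. Without *Kri1* the members took 0.183%, 0.869%, 0.112% and 0.0626% of reads in the libraries labelled brain, colon, kidney and small intestine. With a pseudocount of 0.1 RPKM, 4 of the 8 mRNAs most like a peroxidase stayed the same. Levels from 20 reads or fewer (*Gpx2* in 3 libraries, *Selenow* and *Selenom* in the colon-labelled one) have intervals wider than 2-fold, so small differences were not detectable at this depth.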

Other observations

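Weighting RPKM by the number of UGA codons put *Selenop* first in the lung- and small-intestine-labelled libraries, where *Gpx3* and *Selenow* led on RPKM. The weight is 10 for *Selenop* and 1 for every other mRNA, so the change follows from the weights. Translation of the UGA codons was not measured. When the RPKM of each of the 24 selenoprotein mRNAs was multiplied by its number of UGA codons (33 in all, 10 of them in *Selenop*), *Selenop* held 91.3% of the sum in the brain-labelled library, 79.3% in the heart-labelled one, 77.3% in the kidney-labelled one, 73.1% in the small-intestine-labelled one and 53.3% in the lung-labelled one. In the lung-labelled library its share of the plain RPKM sum was 10.2%, behind *Gpx3* with 29.5%. In the colon-labelled library *Gpx3* stayed first with 60.9%, and *Selenop* had 32.9%. This product takes every ribosome to cross all UGA codons of its CDS, which RPKM over the whole CDS cannot show.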
